A study of Mus musculus with 4 samples.

Results

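Genes for calcium/calmodulin-dependent kinases, calmodulin and calcineurin were followed across postnatal ages and cell classes of the mouse prefrontal cortex (PFC). The members were chosen by name: the CaMKII subunit genes Camk2a, Camk2b, Camk2d and Camk2g, the kinase gene Camk4, the calmodulin genes Calm2 and Calm3, and the calcineurin genes Ppp3ca and Ppp3r1. These 9 genes were among 29281 genes listed in any of the 4 count tables and 23847 listed in all of them, and all 9 were in every table. The tables hold unique molecular identifier (UMI) counts per gene and cell, one library each, from PFC dissociated at postnatal day 1 (P1), day 4 (P4), day 10 (P10) and day 84 (adult). The mice were C57BL/6J, with no genotype or treatment given, and were described in the study's methods as female and as 2 animals per age, and the tissue was cut in the presence of the transcription inhibitor actinomycin D before digestion with protease XXIII and papain. The files do not assign cells to animals, so each age was a single sample, and no test between ages was possible. Classes were compared within a library, without a test, since the only replicates over which they could be paired are libraries of different ages.

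Calcium entering a neuron binds calmodulin, a small sensor protein made in identical form from several Calm genes. Calcium-loaded calmodulin switches on CaMKII, a holoenzyme of many subunits drawn from the alpha, beta, gamma and delta genes, and calcineurin, a phosphatase built from a catalytic subunit (Ppp3ca, Ppp3cb or Ppp3cc) and a calcium-binding regulatory subunit (Ppp3r1 or Ppp3r2). The alpha subunit is among the most abundant proteins of the postsynaptic density in the mature forebrain and is needed for long-term potentiation, whereas the beta subunit binds actin filaments. CaMKIV, the product of Camk4, is largely nuclear and phosphorylates transcription factors such as CREB.

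Positions are given for members other than Camk2a and Camk4 in the mouse genome (GRCm38, GENCODE annotation), and all 9 are protein-coding genes. Camk2b spans 96.7 kb of chromosome 11 on the minus strand, at chr11:5969644-6066362, and Ppp3r1 lies on the plus strand of the same chromosome at chr11:17159263-17200375. Camk2d (chr3:126596302-126846326) and Ppp3ca (chr3:136670124-136937727) share chromosome 3 and the plus strand. Camk2g is at chr14:20734875-20794088, Calm2 at chr17:87433412-87446935 and Calm3 at chr7:16915379-16924114, all on the minus strand. Exons of Camk4 overlapped those of the minus-strand gene 2310026I22Rik and exons of Ppp3r1 overlapped those of the plus-strand gene Wdr92. Reads of each pair may be shared, and whether counting used the strand was not given in the sources used here.

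RefSeq promoter sequences (build GRCm38.p6) were at hand for 4 of the 9 members, Calm3, Camk2b, Camk2d and Ppp3r1. The 250 bases before the annotated start are shown for Camk2b and Camk2d, the pair of CaMKII subunit genes of unlike age profile in the results that follow, whose windows overlapped no annotated exon. The start is that of a RefSeq transcript and lies inside the GENCODE gene span given above, so both windows are within the genes. Capitals mark matches, on either strand, to the GC box GGGCGG, which is read on the opposite strand as CCGCCC and whose matches may overlap. The windows are chr11:6065749-6065998 on the minus strand and chr3:126596701-126596950 on the plus strand.
Camk2b: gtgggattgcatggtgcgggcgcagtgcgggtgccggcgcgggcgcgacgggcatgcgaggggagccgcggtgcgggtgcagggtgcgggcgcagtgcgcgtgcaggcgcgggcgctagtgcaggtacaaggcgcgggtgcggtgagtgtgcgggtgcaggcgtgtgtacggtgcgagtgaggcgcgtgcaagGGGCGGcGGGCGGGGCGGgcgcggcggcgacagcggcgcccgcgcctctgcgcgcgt
Camk2d: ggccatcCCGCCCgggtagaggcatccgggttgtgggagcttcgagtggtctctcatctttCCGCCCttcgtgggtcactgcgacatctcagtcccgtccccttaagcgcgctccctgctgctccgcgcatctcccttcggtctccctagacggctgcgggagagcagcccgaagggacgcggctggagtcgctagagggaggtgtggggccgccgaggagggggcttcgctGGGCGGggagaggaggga
Both windows held 3 GC boxes. At least 1 GC box was found in 32.7% of 32851 promoter windows of the same length, and windows with 3 were not counted. In Camk2b the GC boxes lay 57, 50 and 45 bases before the start, and in Camk2d they lay 243, 189 and 18 bases before it. The GC content was 78.4% for Camk2b and 68.4% for Camk2d, against a median of 52.4% over all windows. Neither window held TATAAA (in 12.4% of all windows), CCAAT (33.9%) or the cAMP response element half-site TGACG (17.8%), each searched on both strands.

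The libraries held 11673, 19646, 16114 and 15961 cell barcodes in order of age, of which 11545, 19014, 15272 and 14087 passed the filter, with median depths of 25800, 12047, 18057 and 11065 UMIs per cell. Any pair of the P4, P10 and adult libraries shared 319 to 368 barcodes, and P1 shared 12 to 20 with each. The P1 library stood apart. Its header calls the library P0, although its label is P1, and names an enhanced bead version, which the other headers do not state, and a later version of the counting pipeline than the 1.8 of the others. It held UMIs of 4 Y-linked genes at 109 CPM (0.113 to 0.175 in the other libraries). Of its cells, 30.8% had such a UMI and none of Xist, which goes against the statement that all mice were female. Ratios of P4 over P1 therefore carry these differences as well as age, and adult over P4, made with the same pipeline version, is the ratio given first.

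Cells were clustered within each library and classes were named from marker lists. Intratelencephalic (IT)-like cells, the excitatory neurons that project within the cortex and striatum, numbered 4737, 6411, 4479 and 4082 in order of age. At each age, 5 to 7 of their 7 markers were at 50 CPM (counts per 1000000 UMIs) or more. Clusters that fitted no other list were named from these same markers, so the count does not test the name. For this class alone, a marker did not have to exceed its level in other clusters, and a marker score down to -0.3 was accepted. Other neuronal classes were layer 5 pyramidal tract (L5 PT)-like, layer 5 near-projecting (L5 NP)-like (none named at P1), layer 6 corticothalamic (L6 CT)-like, and interneurons like those of the medial (MGE) and caudal (CGE) ganglionic eminences. Levels are CPM of the UMIs summed over a class, each with a 95% interval that covers counting error only, not differences between animals. Since 1 UMI stands for 1 captured 3' end, CPM at P4, P10 and adult are comparable between genes without a length term, apart from differences in capture. At P1 intronic reads were not excluded, so levels of different genes there may also depend on gene length. In a summed level, fewer cells with the transcript and less transcript per cell cannot be told apart.

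Camk2a was higher at each successive age in IT-like cells. In order of age its levels were 29.2 (28.3 to 30.1), 172 (170 to 175), 804 (798 to 809) and 1368 CPM (1360 to 1376), with no overlap between intervals. The P1 interval overlapped that of microglia-like cells (19.02 CPM, 11.1 to 30.5), a class of 34 cells with 17 Camk2a UMIs. Among the other classes of that library, L5 PT- and L6 CT-like cells were higher (82.6 and 36.0 CPM) and CGE-like cells did not differ beyond counting error (32.2 CPM), while the level was 8.88 CPM (5.90 to 12.8) in OPC-like (oligodendrocyte precursor) and 3.35 CPM (2.22 to 4.84) in newborn-excitatory-like cells, below IT-like cells. The adult level was 7.94-fold that at P4, a log2 ratio of 2.99 (2.96 to 3.01). Camk2b started from 430 CPM (426 to 433) at P1, and the levels at the later ages were 721 (716 to 727), 850 (844 to 855) and 594 CPM (588 to 599). It was thus highest at P10, and its adult level was 1.21-fold lower than at P4 (log2 -0.28, -0.30 to -0.26).

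Both genes were higher at each age up to P10, and they differed in direction between P10 and adult. The makeup of CaMKII transcripts differed between all 4 ages, with the processing difference of P1 included. Of all UMIs of the 4 subunit genes in IT-like cells, Camk2a took 5.08% (4.93 to 5.23), 16.8% (16.5 to 17.0), 41.2% (41.0 to 41.5) and 58.6% (58.3 to 58.8) from the youngest to the adult library. The share of Camk2b was 74.7%, 70.1%, 43.6% and 25.4% in the same order. Both genes took nearly equal shares at P10, and their order was reversed between P10 and adult. The summed level of the 4 genes was 575, 1029, 1949 and 2336 CPM, so the lower share of Camk2b came with a larger total, while its own level stayed within 594 to 850 CPM from P4 on.

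**Figure D1:**
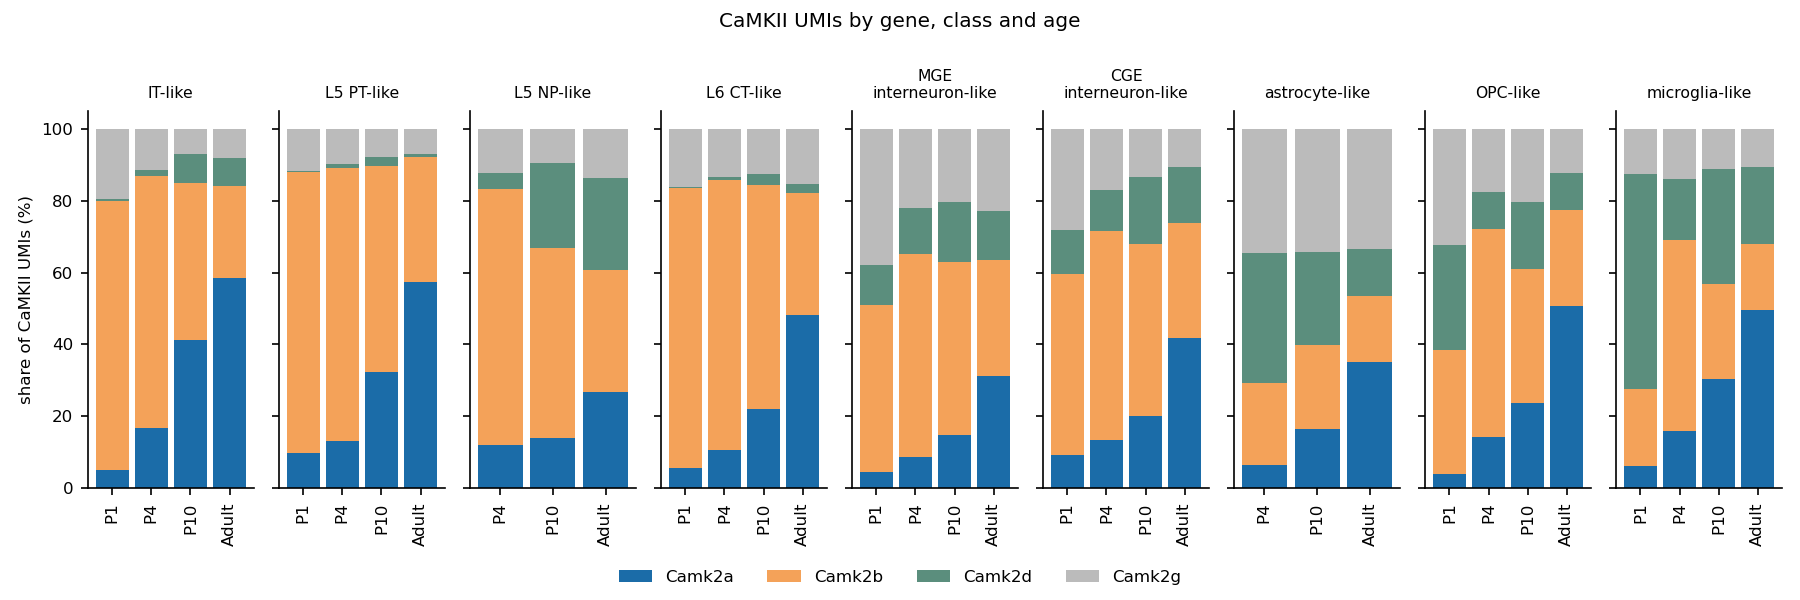
Share (percent) of Camk2a, Camk2b, Camk2d and Camk2g in the summed UMIs of the 4 genes, stacked by age. The classes shown are IT-, L5 PT-, L5 NP-, L6 CT-, MGE-interneuron-, CGE-interneuron-, astrocyte-, OPC- and microglia-like cells. In IT-like cells the Camk2a part is 5.08% at P1 and 58.6% in adult, and in L5 NP-like cells it is 26.7% in adult.

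The same order was visible in single cells. Camk2a had more UMIs than Camk2b in 0.591%, 3.06%, 41.0% and 93.7% of IT-like cells in order of age, and Camk2b had more in 96.6%, 94.0%, 54.7% and 3.80%. The median cell held 0, 2, 18 and 24 Camk2a UMIs and 11, 10, 20 and 10 Camk2b UMIs. After thinning to 2000 UMIs per cell (0 to 66 IT-like cells a library were shallower and not used), Camk2a was the more abundant in 2.15%, 8.42%, 35.0% and 66.5% of cells, and ties and empty cells were more frequent. The share of thinned IT-like cells with at least 1 Camk2a UMI was 4.75% (4.16 to 5.40), 23.6% (22.5 to 24.6), 73.0% (71.7 to 74.3) and 90.1% (89.1 to 91.0). Unthinned, at median depths of 16150 to 30070 UMIs, it was 40.2%, 71.6%, 99.8% and 99.1%. Microglia-like cells, which should lack the transcript, had a Camk2a UMI in 5.88%, 10.5%, 20.8% and 39.2% of thinned cells, and in 26.5%, 32.5%, 38.2% and 59.6% unthinned at median depths of 4262 to 25600. At P1 the share in IT-like cells lay within the wide interval of the 34 microglia-like cells (0.721 to 19.7) and above the 0.567% (0.117 to 1.65) of newborn-excitatory-like cells, and its interval overlapped that of OPC-like cells (1.23%, 0.149 to 4.36). From P4 on it exceeded that in microglia-like cells.

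Camk2d, which encodes the delta subunit common in heart and other tissues, was scarce in young IT-like cells. Its levels there were 4.22 (3.89 to 4.58), 18.0 (17.2 to 18.9), 157 (155 to 159) and 186 CPM (183 to 189). Its adult level was 10.3-fold that at P4 (log2 3.36, 3.29 to 3.44), the largest ratio of any member, and the P10 level was already 8.71-fold that at P4. Camk2d made up 7.94% of CaMKII UMIs in adult IT-like cells. Camk2g, the gamma subunit gene, was at 112, 117, 138 and 188 CPM in IT-like cells, and its adult level was 1.61-fold that at P4 (log2 0.68, 0.65 to 0.72). Its share of CaMKII UMIs was 19.5% at P1 and 7.09% to 11.4% later.

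As in IT-like cells, Camk2b led Camk2a up to P10 and Camk2a led in adult in L5 PT-like and L6 CT-like cells, but not in L5 NP-like cells. In L5 PT-like cells Camk2a was at 82.6, 141, 538 and 1162 CPM, and its P1 level was above that of IT-like cells, although at P4 and later it was below. In L6 CT-like cells it was at 36.0, 78.8, 234 and 894 CPM, with adult over P4 at 11.3-fold (log2 3.50, 3.43 to 3.58) and adult over P10 at log2 1.93, against 0.77 in IT-like cells. Its P4 level there lay within the interval of microglia-like cells (80.6 CPM, 61.4 to 104). Without Scrublet-marked cells it was 77.1 CPM against 48.9 in microglia-like cells, a class of 77 cells with the marked ones. In the same library astrocyte-like cells were at 23.6 CPM (19.9 to 27.8). OPC-like cells were at 64.9 CPM (58.5 to 71.8), and at 21.4 without marked cells. Whether the P4 level in L6 CT-like cells is background was not tested. The Camk2a share in L6 CT-like cells was 22.0% (21.6 to 22.4) at P10, when IT-like cells stood at 41.2%, and 48.1% (47.6 to 48.6) in adult. L5 NP-like cells had the lowest adult level of the excitatory classes, 421 CPM (407 to 437), and the only excitatory makeup in which Camk2b still led Camk2a in adult (33.8% against 26.7%). These differences between classes exceed counting error, but with 1 library per age they were not tested. In adult, endothelial- and OPC-like cells had Camk2a at 536 and 425 CPM, and microglia-, astrocyte- and oligodendrocyte-like cells at 314, 248 and 153. Without Scrublet-marked cells, L5 NP-like cells were at 363 CPM, endothelial-like cells at 307 and OPC-like cells at 204. Whether RNA of other cells enters the L5 NP-like level and share was not tested.

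From P4 on, Camk2d separated the excitatory classes most. In adult it was at 408 CPM (394 to 423) in L5 NP-like, 186 in IT-like, 47.4 (44.3 to 50.7) in L6 CT-like and 16.2 (14.3 to 18.3) in L5 PT-like cells. L5 NP-like cells already had 48.1 CPM at P4 and 364 at P10, and Camk2d took 25.9% (25.1 to 26.7) of their CaMKII UMIs in adult against 0.801% (0.707 to 0.902) in L5 PT-like cells. In MGE- and CGE-interneuron-like cells it was at 79.8 and 75.7 CPM at P4, 442% and 420% of the IT-like level, yet at 132 and 172 CPM in adult it lay below IT-like cells in the first and within counting error of them in the second. Camk2g was highest in L6 CT-like cells in adult, at 284 CPM (276 to 292), where it was 2.81-fold its P4 level. At P4 its levels in the 6 neuronal classes stayed between 101 and 134 CPM.

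**Figure D2:**
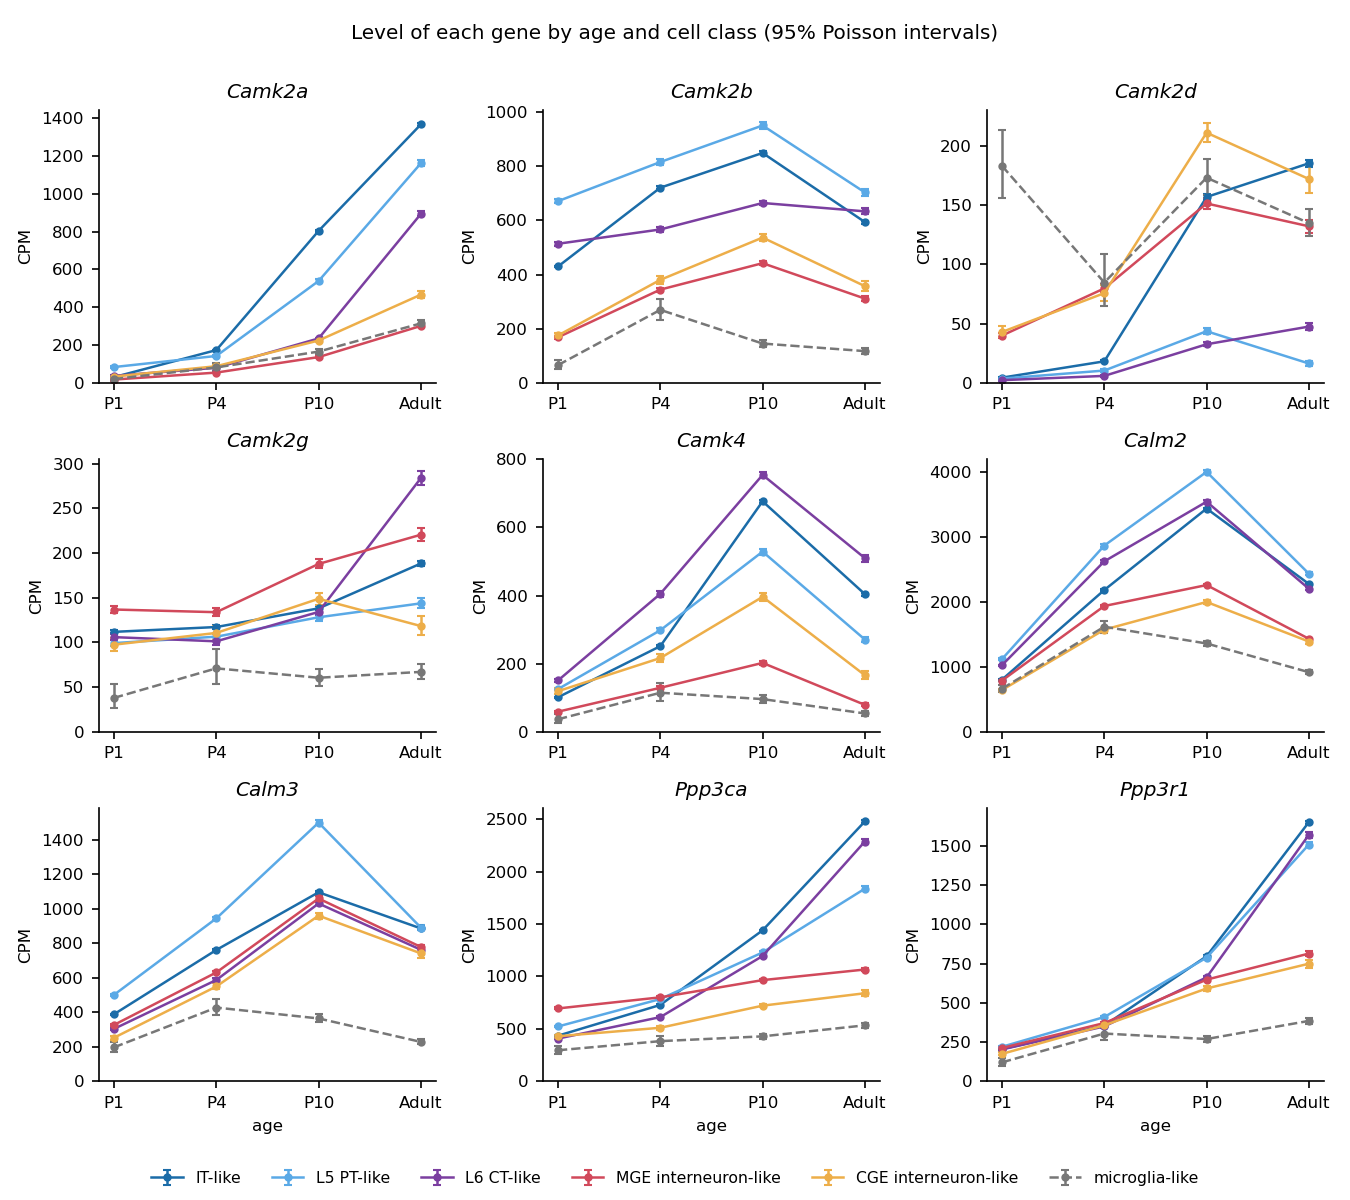
Level (CPM of summed UMIs, with 95% counting intervals) of each of the 9 members at P1, P4, P10 and adult in 6 classes, microglia-like cells dashed. Camk2a, Ppp3ca and Ppp3r1 are highest in adult IT-like cells, and Camk4, Calm2 and Calm3 are highest at P10 in the neuronal classes shown.

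Camk2a was below the IT-like level in MGE-like cells at every age and in CGE-like cells from P4 on. It was at 16.3, 53.2, 135 and 300 CPM in MGE-like cells, against 19.02 (11.1 to 30.5), 80.6 (61.4 to 104), 164 (150 to 180) and 314 (297 to 332) CPM in microglia-like cells of the same libraries. The MGE-like level was thus at or below that of microglia-like cells at every age. On that comparison, neither it nor the Camk2a shares of this class (4.51% to 31.2%) could be set apart from RNA of other cells. Per cell, MGE-like cells held 0.384, 0.605, 3.11 and 5.57 Camk2a UMIs in order of age. Microglia-like cells, of lower median depth from P4 on, held 0.5, 0.766, 0.675 and 1.19. Which measure suits RNA of other cells was not tested. The other non-neuronal classes of at least 50 cells lay on both sides of the MGE-like level in CPM, and some changed side without Scrublet-marked cells. OPC-like cells had 8.88, 64.9, 100 and 425 CPM in order of age, astrocyte-like cells 23.6, 101 and 248 from P4 on, endothelial-like cells 184 at P10 and 536 in adult, and oligodendrocyte-like cells 160 and 153 at those ages. Removing the 9.46% to 13.9% of MGE-like cells that Scrublet marked as doublets put their levels at 14.9, 38.1, 98.9 and 233 CPM. Microglia-like cells without marked cells were at 17.7, 48.9, 169 and 314 CPM, and OPC-like cells at 6.16, 21.4, 101 and 204. Astrocyte-like cells were then at 23.3, 102 and 230 CPM from P4 on. At P10 and in adult, endothelial-like cells were then at 91.3 and 307 CPM and oligodendrocyte-like cells at 91.3 and 152. CGE-like cells had 223 CPM (215 to 232) at P10 and 466 (446 to 487) in adult, above microglia-like cells at those ages but in adult below endothelial-like cells (536 CPM, 517 to 556). Without Scrublet-marked cells the adult levels were 395 CPM in CGE-like and 307 in endothelial-like cells. The adult CGE-like level was above that of L5 NP-like cells (421 CPM, 407 to 437), also without marked cells (395 against 363). In adult CGE-like cells Camk2a took 41.9% (40.4 to 43.3) of CaMKII UMIs and Camk2b 32.0% (30.7 to 33.4). At P4 the 87.0 CPM of CGE-like cells overlapped the microglia-like interval (72.6 against 48.9 CPM without marked cells). Camk2b was at 311 CPM in adult MGE-like and 357 in adult CGE-like cells, compared with 117 in microglia-like and 299 (285 to 314) in endothelial-like cells (188 without marked cells).

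Camk4 was highest at P10 in each of the 6 neuronal classes. IT-like cells had 102 (99.8 to 103), 252 (248 to 255), 676 (672 to 681) and 404 CPM (400 to 409) by age, and the adult level was 1.61-fold that at P4 (log2 0.68, 0.66 to 0.71). L6 CT-like cells had the top level at each age, with 151, 405, 754 and 510 CPM. In L5 NP-like cells the adult level was lower than at P4, 139 CPM (130 to 147) against 301 (288 to 315), a log2 ratio of -1.12 (-1.23 to -1.01). The ratio was also below 0 in CGE-like (log2 -0.38, -0.51 to -0.25) and L5 PT-like cells (-0.14, -0.19 to -0.09) and above 0 in L6 CT-like cells (0.33, 0.29 to 0.37), so 4 of the 6 neuronal classes were lower in adult than at P4. MGE-like cells had 129 CPM at P4 and 79.2 in adult (log2 -0.71, -0.80 to -0.61). Without Scrublet-marked cells these were 106 and 54.8 CPM, a log2 ratio of -0.95. Microglia-like cells were then at 38.6 and 54.3 CPM, so in CPM the adult MGE-like level was not set apart from theirs. Per cell, with the marked cells kept, adult MGE-like cells held 1.469 Camk4 UMIs and microglia-like cells 0.2055.

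Calm2 and Calm3 were also highest at P10 in each of the 6 neuronal classes. Calm2, the most abundant member in IT-like cells before adulthood, was at 804, 2183, 3436 and 2276 CPM in IT-like cells, and its adult level lay within 1.04-fold of that at P4 (log2 0.06, 0.05 to 0.07). Calm3 was at 388, 760, 1095 and 885 CPM, with adult over P4 at log2 0.22 (0.20 to 0.23). L5 PT-like cells had the highest Calm2 level at every age, 1120, 2867, 4001 and 2434 CPM, although at P4 it did not differ from L5 NP-like cells (2827) beyond counting error.

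Ppp3ca and Ppp3r1 were highest in adult IT-like cells, whereas the other catalytic gene Ppp3cb was highest at P10. Ppp3ca, the catalytic A-alpha subunit gene, had levels of 433 (430 to 437), 727 (722 to 732), 1439 (1432 to 1446) and 2479 CPM (2468 to 2491) in IT-like cells, 3.41-fold its P4 level in adult (log2 1.77, 1.76 to 1.78). Ppp3r1, the regulatory B subunit gene, was at 204, 354, 797 and 1653 CPM, 4.66-fold its P4 level in adult (log2 2.22, 2.20 to 2.24). Ppp3cb, the A-beta gene, was at 624, 990, 1250 and 842 CPM, with adult over P4 at log2 -0.23. As a result Ppp3ca took 40.1%, 41.8%, 53.1% and 74.2% of the catalytic-subunit UMIs in IT-like cells, and Ppp3cc stayed at 0.523% to 2.17%. Ppp3cb was thus the leading catalytic gene in IT-like cells at P1 and P4, and Ppp3ca at P10 and in adult. The order was the same in L5 PT- and L6 CT-like cells. In MGE-like cells Ppp3ca already led at P1 (53.0% against 43.8%). At P10 Ppp3cb still led in L5 NP-like (60.5%) and CGE-like cells (54.1%).

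The neuronal classes differed less in Ppp3r1 at P4 than in adult. At P4 Ppp3r1 was between 349 and 409 CPM in the 6 neuronal classes and at 303 CPM (265 to 346) in microglia-like cells. Without Scrublet-marked cells that microglia-like level was 219 CPM. In adult Ppp3r1 was at 1653, 1572, 1510 and 1203 CPM in IT-, L6 CT-, L5 PT- and L5 NP-like cells. In adult MGE- and CGE-like cells it was at 814 and 749 CPM. Ppp3ca was highest in MGE-like cells at P1 (694 CPM, 684 to 703) and at P4 (800, not different from L5 PT-like cells beyond counting error), and in IT-like cells at P10 and in adult. Its adult level in MGE-like cells was 1.33-fold that at P4, against 3.75-fold in L6 CT-like cells. In microglia-like cells Ppp3ca was at 532 CPM and Ppp3r1 at 384 CPM in adult, 21.5% and 23.2% of the IT-like levels.

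In IT-like cells, 4 of the 9 members (Camk2a, Camk2d, Ppp3ca and Ppp3r1) were at least 2-fold higher in adult than at P4, compared with 19.1% of the 5040 genes at 50 CPM or more at either age. No member was at least 2-fold lower (18.4% of genes). The median log2 ratio of the members was 0.68, and that of all 5040 genes was -0.08. Camk2d, Camk2a, Ppp3r1 and Ppp3ca were exceeded by 2.54%, 3.35%, 6.23% and 9.54% of genes, and Camk2b by 57.7%. For P10 over P4, 4 members were at least 2-fold higher (Camk2a, Camk2d, Camk4 and Ppp3r1, 8.45% of genes) and 0 were lower (6.39%). Camk2d was at 18.0 CPM at P4. It passed the 50 CPM filter only through the older age in adult over P4 and in P10 over P4, which fixed its calls. For adult over P10, Ppp3r1 was higher (8.54%) and 0 were lower (7.4%). For P4 over P1, Camk2a, Camk4 and Calm2 were higher among the 8 members at 50 CPM or more (4.23%) and 0 were lower (6.35%), with the processing difference included.

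**Figure D3:**
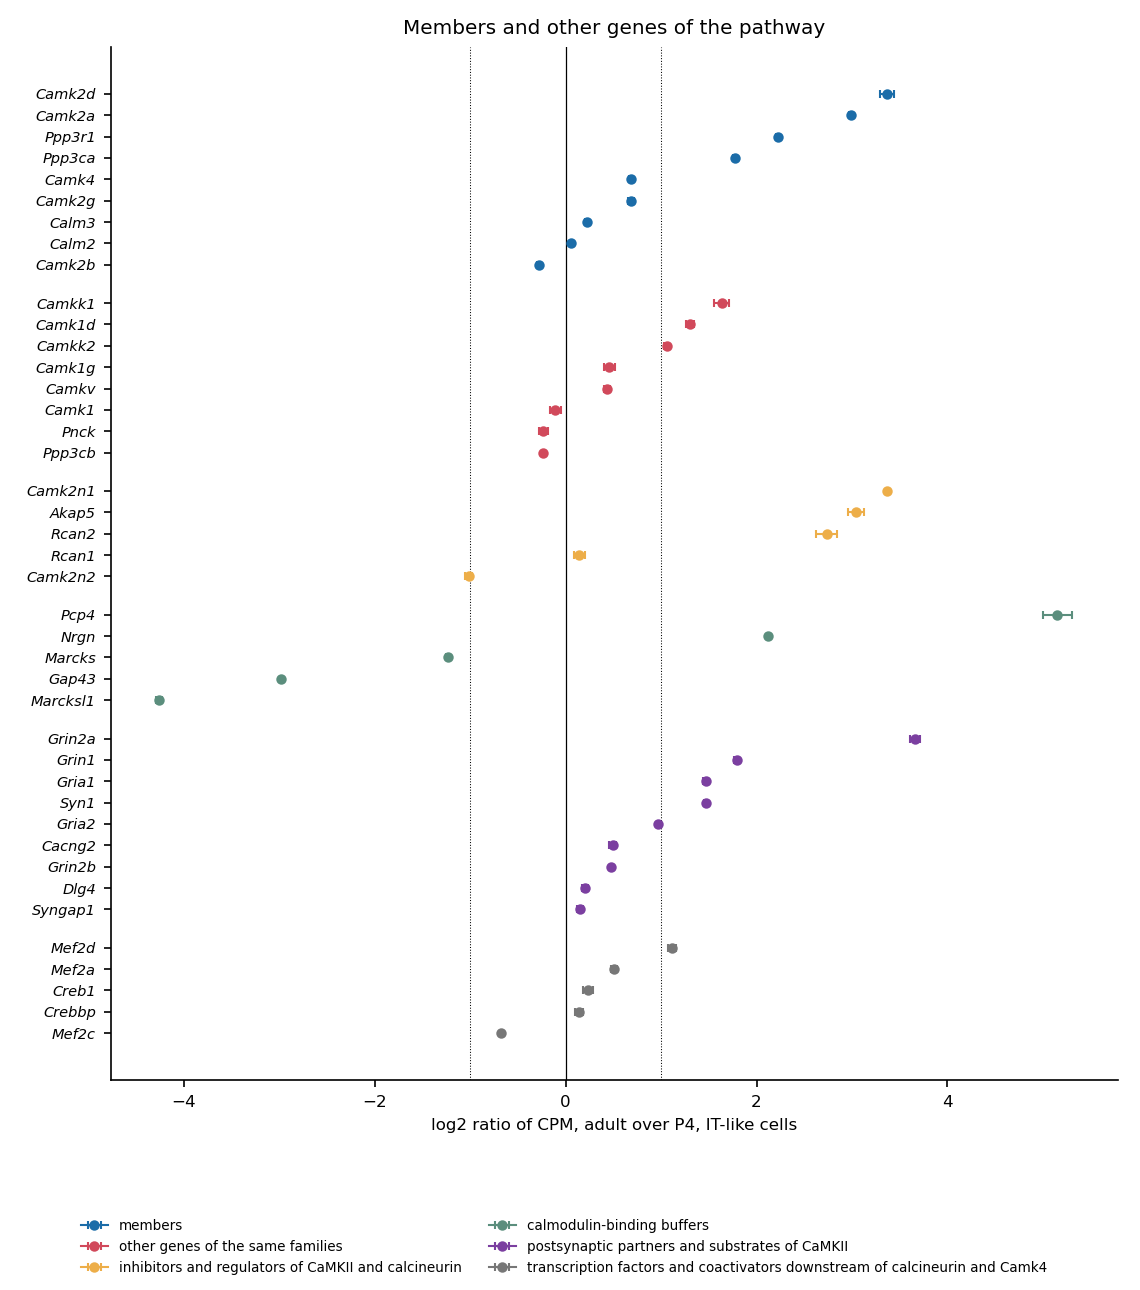
Log2 ratio of adult over P4 in IT-like cells (95% counting intervals) for the 9 members and the genes of the 5 pathway lists, with dotted lines at a 2-fold difference either way. Camk2d (3.36), Camk2a (2.99), Ppp3r1 (2.22) and Ppp3ca (1.77) lie past the upper line, and no member lies past the lower one.

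In the other neuronal classes, between 2 and 4 members were at least 2-fold higher in adult than at P4, and without Scrublet-marked cells between 1 and 4. They were Camk2a, Camk2g, Ppp3ca and Ppp3r1 of 8 members at 50 CPM or more in L6 CT-like cells (16% of genes) and Camk2a, Ppp3ca and Ppp3r1 of 8 in L5 PT-like cells (17.3%), while 0 were at least 2-fold lower (19.2% and 15.4%). In L5 NP-like cells Camk2a, Camk2d and Ppp3r1 of 9 were higher (16.6%) and Camk4 was lower (16.1%). CGE-like cells had Camk2a, Camk2d and Ppp3r1 of 9 (15%). MGE-like cells had Camk2a, not above microglia-like cells there in CPM, and Ppp3r1 of 9 (15.8%). In these 2 classes 0 were lower (16.1% and 18%). Without Scrublet-marked cells, Ppp3r1 (1.93-fold) and Camk2d (just under 2-fold) were no longer past 2-fold in CGE-like cells, and Ppp3r1 in MGE-like cells was at the threshold (374 against 749 CPM). Camk2a was past 2-fold in all 6 neuronal classes with and without the marked cells.

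IT-like cells were not uniform in these genes. At P4 the 3 IT-like clusters had Camk2a at 269, 167 and 93.7 CPM and a Camk2a share of 24.6%, 15.8% and 9.78%, in the clusters led by Slc30a3, Aldh1a3 and Syt4. Camk4 was at 335, 336 and 143 CPM in these clusters, lower in the one led by Syt4 and alike in the other two, while Camk2b was at 694, 726 and 742 CPM. Camk2d was at 10.3, 40.6 and 14.3 CPM in the same order. By adulthood both IT-like clusters had a Camk2a share of 58.0% and 59.8%. The adult cluster led by Wfs1 had Ppp3ca at 3457 CPM and Camk4 at 322 CPM, and the one led by C1ql3 had 2123 and 434 CPM. At P10 the cluster led by Vegfd had Camk2d at 48.0 CPM, and the other 2 had 182 and 187 CPM. An unnamed P4 cluster of 1283 cells led by Vegfd and Npy, left out because Npy is on the MGE list, had a Camk2a share of 19.6% and Camk2d at 3.61 CPM.

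Non-neuronal classes were read against RNA from other cells. A list of 8 neuron-restricted genes (Snap25, Syt1, Stmn2, Stmn3, Rtn1, Nrn1, Neurod6 and Slc17a7) had a summed level in microglia-like cells of 13.6%, 44.2%, 16.4% and 15.02% of that in IT-like cells at the 4 ages. In adult microglia-like cells Camk4 (13.4% of the IT-like level) was below the list, and the other 8 members were above it. Camk2b (19.6%), Ppp3ca (21.5%), Camk2a (22.9%), Ppp3r1 (23.2%) and Calm3 (25.7%) were nearest to it, and Camk2g (35.6%), Calm2 (40.4%) and Camk2d (72.7%) furthest above. Camk2d was at 183 CPM (156 to 214) in microglia-like cells at P1, when IT-like cells had 4.22 CPM. The microglia-like class had only 34 cells at P1 and 77 at P4, and 23.4% of the latter were Scrublet-marked. Without the marked cells, Camk2a, Camk2b and Camk4 at P4 were at 48.9, 103 and 38.6 CPM there instead of 80.6, 269 and 115.

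In astrocyte-like cells the neuron-restricted list was at 19.3%, 16.4% and 19.6% of the IT-like level at P4, P10 and adult, and Camk2d and Camk2g were furthest above these percentages. Calm2, Calm3, Ppp3ca and Ppp3r1 were above them too, at 26.6%, 40.1%, 51.3% and 43.5% of the IT-like level at P4 and at 25.9%, 32.3%, 24.9% and 23.1% in adult, when Camk2b was at 21.9%. Camk2d was at 135 CPM (126 to 145) at P4, 750% of the IT-like level, 160 at P10 and 93.3 in adult, and Camk2g at 130, 212 and 236 (223 to 249) CPM, with the adult level 125% of that in IT-like cells. Camk2a in astrocyte-like cells was at 23.6, 101 and 248 CPM, below microglia-like cells at each of these ages. Oligodendrocyte-like cells in adult had the lowest level of Camk2a, Camk2b, Camk2g, Camk4, Ppp3ca and Ppp3r1 of any named class (153, 80.5, 41.6, 41.4, 458 and 272 CPM) among the classes with at least 50 cells, although the Camk4 interval overlapped that of microglia-like cells. OPC-like cells had Camk2a at 64.9 CPM at P4 and 425 in adult. Without Scrublet-marked cells, 16.1% and 10.2% of the class, these were 21.4 and 204 CPM.

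Endothelial-like cells, 505 at P10 and 832 in adult, held the neuron-restricted list at 33.5% and 45.3% of the IT-like level, and 15.1% and 17.9% of them were Scrublet-marked. Their adult members ranged from 39.2% (Camk2a) to 63.3% (Camk2g) of the IT-like level. Removing the marked cells put adult Camk2a at 307 CPM instead of 536, Ppp3ca at 733 instead of 1141 and Ppp3r1 at 501 instead of 752. In 502 progenitor-like cells at P4 the list was at 41.0%, and Camk2d (145%) was the only member above the IT-like level. Cajal-Retzius-like cells (55 to 122 a library, P1 to P10) had Camk2a at 8.33, 33.9 and 67.6 CPM and Camk2b at 160, 250 and 270 CPM. Mural- or fibroblast-like cells numbered 23 to 77 where named, too few for levels of the lower members.

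**Figure D4:**
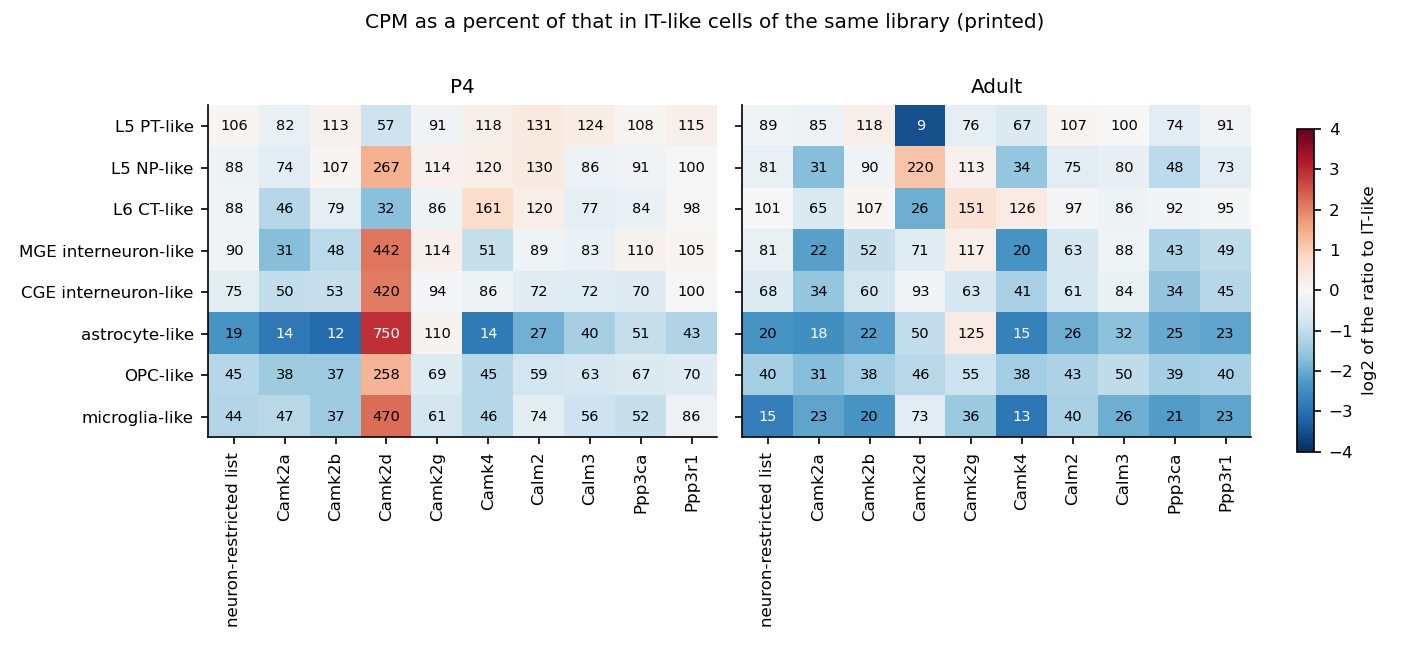
Level of each member, and of the summed neuron-restricted list, in each class as a percent of the IT-like level, at P4 and in adult; colour is on a log2 scale. Camk2d in astrocyte-like cells is at 750% at P4, while Camk2a in adult microglia-like cells is at 22.9% beside 15.02% for the list.

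Other genes of the pathway were described from lists chosen with earlier results of these data known, over IT-like cells, adult over P4. Each count stands against the 19.1% of all genes at least 2-fold higher and 18.4% at least 2-fold lower in this comparison, and each median against -0.08. Of the genes called higher below, Camkk1, Rcan2, Akap5, Pcp4, Grin2a and Nrn1 reached 50 CPM only in adult. For all of these but Grin2a, the P4 level was so low that passing the filter fixed the call. Among the reported genes of the same families, 8 of 10 were at 50 CPM or more, 3 were at least 2-fold higher and 0 lower, with a median log2 ratio of 0.44. Those higher were the CaM kinase kinases Camkk1 (19.7 to 61.1 CPM, 3.10-fold) and Camkk2 (209 to 436 CPM, 2.08-fold) and the CaM kinase I gene Camk1d (79.8 to 197 CPM, 2.47-fold). The other family genes had log2 ratios between -0.23 and 0.46, namely Ppp3cb (-0.23), Camk1 (-0.11), Camk1g (0.46), Camkv (0.43) and Pnck (-0.23).

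Inhibitors and anchors of these enzymes differed among themselves. Of 5 regulators at 50 CPM or more out of 7, 3 were at least 2-fold higher and 1 lower. Camk2n1, an inhibitor protein of CaMKII, was at 174, 338, 1508 and 3489 CPM at the 4 ages, 10.3-fold higher in adult than at P4, and its relative Camk2n2 was 2.02-fold lower in adult (251 against 124 CPM). Akap5, which anchors calcineurin at the postsynapse, was 8.24-fold higher (14.1 against 116 CPM), and the calcineurin regulator Rcan2 was 6.65-fold higher (7.81 against 51.9 CPM). Its relative Rcan1 was at log2 0.14.

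All 5 calmodulin-binding buffers passed 2-fold, 2 higher and 3 lower in adult. Pcp4 was 35.5-fold higher (3.77 against 134 CPM) and Nrgn, which encodes neurogranin, 4.34-fold higher (1338 against 5802 CPM). Marcksl1 was 19.1-fold lower (2076 against 109 CPM), Gap43, a growth-cone protein, 7.89-fold lower (6453 against 818 CPM), and Marcks 2.35-fold lower. Postsynaptic partners and substrates had 9 of 10 genes at 50 CPM or more, with 4 higher and 0 lower: the NMDA receptor subunit genes Grin2a (12.6-fold) and Grin1 (3.46-fold), the AMPA receptor gene Gria1 (2.76-fold) and the synaptic vesicle gene Syn1 (2.76-fold). Of the 11 transcription factors and coactivators, 5 were at 50 CPM or more and 1, Mef2d, was 2.17-fold higher, a share near the 19.1% of all genes, while Mef2a was at log2 0.50 and Mef2c at -0.68. In the neuron-restricted list itself, 4 of 8 genes were higher and 2 lower, led by Nrn1 (log2 7.05), Slc17a7 (3.60) and Snap25 (3.45).

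The profiles were also set beside those of 9683 genes that reached 50 CPM in any of 43 class-by-age profiles, which share 4 libraries and are therefore not independent. On log2(CPM + 10), the genes most like Camk2a were Phyhip (Pearson r = 0.96) and Ddn (0.95), the latter encoding the dendritic protein dendrin. Camk2b was most like Ywhaz (0.94) and Bend6 (0.92), Camk4 was close to Pgm2l1 (0.90), and Camk2g was most like Pfkm (0.87) and Gabrg3 (0.79). Camk2d had no close match, with Glrx at 0.72 and Purb at 0.69. The nearest genes were Hras (0.94) and Stx1a (0.91) for Calm2 and Ap2m1 (0.98) and Rnf14 (0.94) for Calm3. Ppp3ca was close to Ociad2 (0.94), and Ppp3r1 nearest to Eno2 (0.97) and Atp6v1b2 (0.96). Among the members themselves, r was highest for Calm2 with Calm3 (0.91) and for Ppp3ca with Ppp3r1 (0.89), and lowest for Camk2b with Camk2d (-0.07). These values describe the profiles and carry no test.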

How the data were processed

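Single-cell suspensions of mouse PFC were captured on the BD Rhapsody system and made into 3' whole-transcriptome libraries, 1 per age. The deposited tables hold raw UMI counts per gene and cell, which the authors made with the BD Rhapsody pipeline (version 1.8 for P4, P10 and adult and a later one for P1, per the file headers; the study's methods name 1 version for all), against mm10 with GENCODE release 19 of the mouse annotation. Positions came from release 21 of the same build. Counts at P1 were made without excluding intronic reads, which can move P4 over P1 ratios and the shares at P1. Library totals were 340724049, 273834131, 287594712 and 200198548 UMIs at P1, P4, P10 and adult.

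Cells were kept from 1000 UMIs and 1000 genes upward, where mitochondrial genes took no more than 15% of UMIs. Each library was clustered by itself (scanpy 1.11.5, 2000 variable genes without the members and pathway genes, 30 principal components, 20 neighbours, Leiden resolution 0.5). Classes were named from 19 marker lists, with thresholds on the marker scores set after the scores were seen, so they are rebuilt classes and not the study's own. Clusters of mixed or unclear markers stayed unnamed (14.5%, 13.7%, 6.97% and 8.09% of cells), among them mixed layer 6b and corticothalamic clusters at P1 and P4. Doublets were marked with Scrublet (5.11% to 9.41% of cells) and kept in the main values, since the study's own doublet removal was not repeated. UMIs were summed per class and library, and CPM were taken over all genes except 13 mitochondrial and 84 ribosomal protein genes, with exact Poisson intervals (scipy 1.17.1). Ratios had exact conditional binomial intervals and shares had Clopper-Pearson intervals, all at 95%. UMIs of a cell and cells of an animal are not independent, so intervals cover counting error only. The ratio calculation was also run on simulated Poisson counts, which hold no spread between cells or animals. Calls of 2-fold used genes at 50 CPM or more at either age. A gene of very low level at 1 age that passed only through the other was past 2-fold by that rule, also in the share over all genes. Shares of cells were computed after thinning to 2000 UMIs.

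All 9 members were reported, in full for the neuronal classes and by range or selected members for the others. Of each pathway list, the 3 genes with the largest ratio were named, plus all family genes at 50 CPM or more, and for each member the 2 most correlated genes, apart from a few genes that are not reported here and are left out of the counts of family genes and of the plot of ratios. Syn1, Nrgn, Marcks and Camk2n2 were added after their values were seen, because they complete counts of 5 or fewer. Rcan1 was likewise named outside the rule of the 3 largest ratios. The members and lists were chosen with earlier results of these data known. Alternatives were another clustering resolution, removal of marked cells, a stricter filter, another CPM denominator, means over cells and joint clustering, and 3 further ones chosen after seeing the data.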

Additional observations from a re-analysis of the deposited data

Results flagged for a closer look

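Camk4 had opposite signs of the adult over P4 ratio in different neuronal classes. In IT-like cells the log2 ratio was 0.68, whereas it was -1.12 in L5 NP-like cells and -0.71 in MGE-interneuron-like cells. It was -0.38 in CGE-interneuron-like, -0.14 in L5 PT-like and 0.33 in L6 CT-like cells. The difference between classes was not tested, since each age was 1 library. In L5 NP-like cells the levels were 301 CPM at P4 and 139 CPM in adult, and in MGE-interneuron-like cells 129 and 79.2 CPM. Without Scrublet-marked cells the MGE-interneuron-like levels were 106 and 54.8 CPM, a log2 ratio of -0.95. In CPM the adult level was not set apart from the 54.3 CPM of microglia-like cells. Per cell, with the marked cells kept, it was 1.469 UMIs against 0.2055.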

How the results depend on the processing

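No paired analysis was possible because each age was 1 library. Under all 9 alternatives, 3 of them chosen after seeing the data, Camk2a, Camk2d, Ppp3ca and Ppp3r1 were the 4 members at least 2-fold higher in adult than at P4 in IT-like cells, and 0 were at least 2-fold lower. The Camk2a share of CaMKII UMIs moved past its counting interval in these cases. At P4 it was 16.1% as a mean over cells, 17.1% with the libraries clustered together and 17.1% with the P4 cluster led by Vegfd and Npy added. At P10 it was 40.9% at Leiden resolution 1.0, 41.0% as a mean over cells and 40.8% without IT-like clusters of a score below 0. Over all cells of a library it was 6.05%, 14.7%, 33.9% and 53.4% at P1, P4, P10 and adult. The signs of 2 ratios were reversed. That of Camk2d adult over P10 was log2 -0.014 without the IT-like clusters of a score below 0 (0.24 with them), and that of Calm2 adult over P4 was log2 -0.24 with all cells together (0.06 in IT-like cells). Over the alternatives, adult over P4 ranged from log2 2.89 to 3.09 for Camk2a, 2.31 to 3.56 for Camk2d, 0.23 to 0.76 for Camk4, 1.49 to 1.86 for Ppp3ca and 1.89 to 2.27 for Ppp3r1, and the cause of these movements was not tested. With all cells of a library together, the Camk2d ratio (log2 2.31) was below that of Camk2a (2.89), unlike in IT-like cells. In CGE-interneuron-like cells Camk2d was under 2-fold at Leiden resolution 1.0 (1.99-fold), with the libraries clustered together (1.88-fold) and without Scrublet-marked cells, which also put Ppp3r1 at 1.93-fold. Endothelial-like levels depended on Scrublet-marked cells, with Camk4 at P10 at 174 CPM with and 87.7 without them. The largest movement of a class level was Camk2d in L5 PT-like cells at P1, 15.7-fold higher with the libraries clustered together, and no adult cluster was named L5 PT-like there. Depth limits low genes in small classes, such as microglia-like cells at P1 and P4.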
